A study of Mus musculus with 10 samples.

Results

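The genes described here encode potassium channel subunits, taken as all symbols made of Kcn, letters and a number. Of the 31510 genes in the table, 92 symbols matched, and 77 of them had normalised counts that reached 10 in 5 or more of the 10 libraries. These 77 genes are the members, among 17556 genes that met the same minimum. RNA was sequenced from the microdissected hippocampus of male APP/PS1 mice, which carry transgenes that lead to amyloid deposits in the brain. At 8 months of age, 5 mice were given AAV8-irisin-FLAG through the tail vein and 5 were given AAV8-GFP, and tissue was taken 2 months later. AAV8 is a viral vector, and the purpose stated for it was to make the liver release FLAG-tagged irisin into the blood. Irisin is a hormone cut from the muscle membrane protein FNDC5. Both groups carried the APP/PS1 transgenes and a vector, no mice without them were compared, and the promoter of the vectors is not named in the sources used here.

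Potassium channels let potassium leave the cell down its gradient, which repolarises neurons after an action potential and holds the resting potential. Voltage-gated Kv channels open on depolarisation, inward rectifiers and two-pore-domain (K2P) channels carry current near rest, and BK and SK channels open when calcium enters. Pore subunits form the conducting channel, while auxiliary subunits such as Kv beta proteins and Kv channel-interacting proteins (KChIPs) change its gating or its traffic to the membrane. In the hippocampus, Kv4 channels shape dendritic signals of pyramidal cells, Kv7 channels give the M current, Kv3 channels allow fast-spiking interneurons to fire rapidly, and Kir4.1 in astrocytes takes up potassium.

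Totals of normalised counts lay between 35284321 and 36623029 per library, and because the values were already scaled the read depth is unknown. All 11 hippocampal neuron markers were above 0 in every library, with sums of 203779 to 218654 in the AAV8-GFP mice and 208166 to 213102 in the AAV8-irisin mice. Summed astrocyte markers ranged from 129217 to 167700 and from 137993 to 144839, with the highest value in AAV8-GFP mouse 3. The library of AAV8-GFP mouse 1 stood apart from the rest for the members, and for members described mouse by mouse whose log2 difference was 0.05 or more either way, a value that moved by over 1.5 times without it is also given. In tissue RNA, fewer cells of a type and less RNA per cell cannot be told apart.

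Pore members share a short coding sequence that the symbol rule did not use. Potassium selectivity rests on a loop in the pore whose signature is glycine, tyrosine, glycine, with phenylalanine or leucine in place of the tyrosine in some families. GGNTANGGN covers the tyrosine codons, and GGNTTNGGN those of phenylalanine and some of leucine. Both were searched in frame on the coding strand of the longest GENCODE M21 coding sequence of each gene. Leucine codons that start with CT were not searched. At least 1 of the patterns was present in 66 of 66 members that encode pore subunits and in 0 of 11 auxiliary members, against 16.6% of 21538 coding sequences of all genes. GGNTANGGN was present in 51 pore members, and GGNTTNGGN in 24. A match was counted anywhere in the coding sequence, so these are counts of patterns and not of filter types. Kcnh4, for example, has GGNTANGGN at base 160 and GGNTTNGGN at base 1321, and Kcna6 has GGNTANGGN at base 1270 and GGNTTNGGN at base 724. The 15 members with GGNTTNGGN alone were 7 of the 8 Kcnh genes, Kcnj8, Kcnj11, Kcnk2, Kcnk12, Kcnk13, Kcnt1, Kcnt2 and Kcnu1. Of the 10 K2P members, 8 held 2 or more matches, and a loop with a leucine codon that starts with CT would not be counted. K2P subunits are known to have paired pore loops in 1 chain.

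Sequences around the filter codons are shown for the members of smallest p, for the BK channel, and for K2P and KATP examples. The match is in capitals within 45 bases of coding sequence, 5′ to 3′ on the coding strand.
Kcna3: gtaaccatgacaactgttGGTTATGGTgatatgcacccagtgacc
Kcnq1: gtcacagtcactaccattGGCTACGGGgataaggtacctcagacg
Kcnma1: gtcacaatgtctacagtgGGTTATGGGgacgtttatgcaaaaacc
Kcnj5: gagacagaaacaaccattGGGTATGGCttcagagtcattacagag
Kcnh6: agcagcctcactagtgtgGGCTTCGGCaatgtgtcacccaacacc
Kcnh7: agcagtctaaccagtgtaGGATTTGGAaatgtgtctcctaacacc
Kcnj11: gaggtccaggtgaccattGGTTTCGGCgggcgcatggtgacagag
Kcnk5 first: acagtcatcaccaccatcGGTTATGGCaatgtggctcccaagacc
Kcnk5 second: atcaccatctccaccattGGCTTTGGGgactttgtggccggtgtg
On mm10 the capitals lie in coding exons at chr3:107037617-107037625 for Kcna3 and chr7:143191438-143191446 for Kcnq1, both on the plus strand. That of Kcnma1 lies at chr14:23528413-23528421 on the minus strand. The match of Kcnj5 is at chr9:32322559-32322567 on the minus strand. Kcnh6 has its match at chr11:106019082-106019090 on the plus strand, and Kcnh7 at chr2:62777343-62777351 on the minus strand. In Kcnj11 the match is at chr7:46099496-46099504 on the minus strand. The first match of Kcnk5 spans an exon junction, and its second is at chr14:20144648-20144656 on the minus strand. The first 4 genes have the tyrosine codon. The next 3 have the phenylalanine codon TTC or TTT, and Kcnk5 has the tyrosine codon in its first loop and TTT in its second.

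No potassium channel gene passed the test between AAV8-irisin and AAV8-GFP mice. By limma with Benjamini-Hochberg adjustment over 17556 genes, 0 of 77 members had an adjusted p under 0.05, against 0.0% of all genes in either direction. Adjusted p-values of the members lay between 0.942 and 0.996. At an unadjusted p under 0.05 there were 3 members (3.9%), against 4.49% of all genes, so the share was near the background. Of these, Kcna3 and Kcnh7 had higher means after AAV8-irisin, where 2.28% of all genes are found, and Kcnq1 had a lower mean, where 2.21% are found. The groups did not overlap for 1 member (1.3%), Kcnh6, against 0.803% of all genes. Means were higher after AAV8-irisin for 43 members (55.8%), against 50.5% of all genes, and lower for 34, against 49.5%. The median log2 difference, taken as AAV8-irisin less AAV8-GFP after log2(value + 1), was 0.018 over the members and 0.00099 over all genes, and the members ranged from −0.76 to 0.53.

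The size of difference that these mice left possible can be read from the 95% intervals. The interval lay within 1.5-fold either way for 72 members and within 1.1-fold for 17. All 67 members with a mean of at least 100 normalised counts were within 1.5-fold. The 10 members under 100 had wider intervals, and only 5 of them were within 1.5-fold. Standard errors of the log2 difference ran from 0.028 for Kcnc1, a Kv3 subunit, to 0.32 for Kcnk5.

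**Figure D1:**
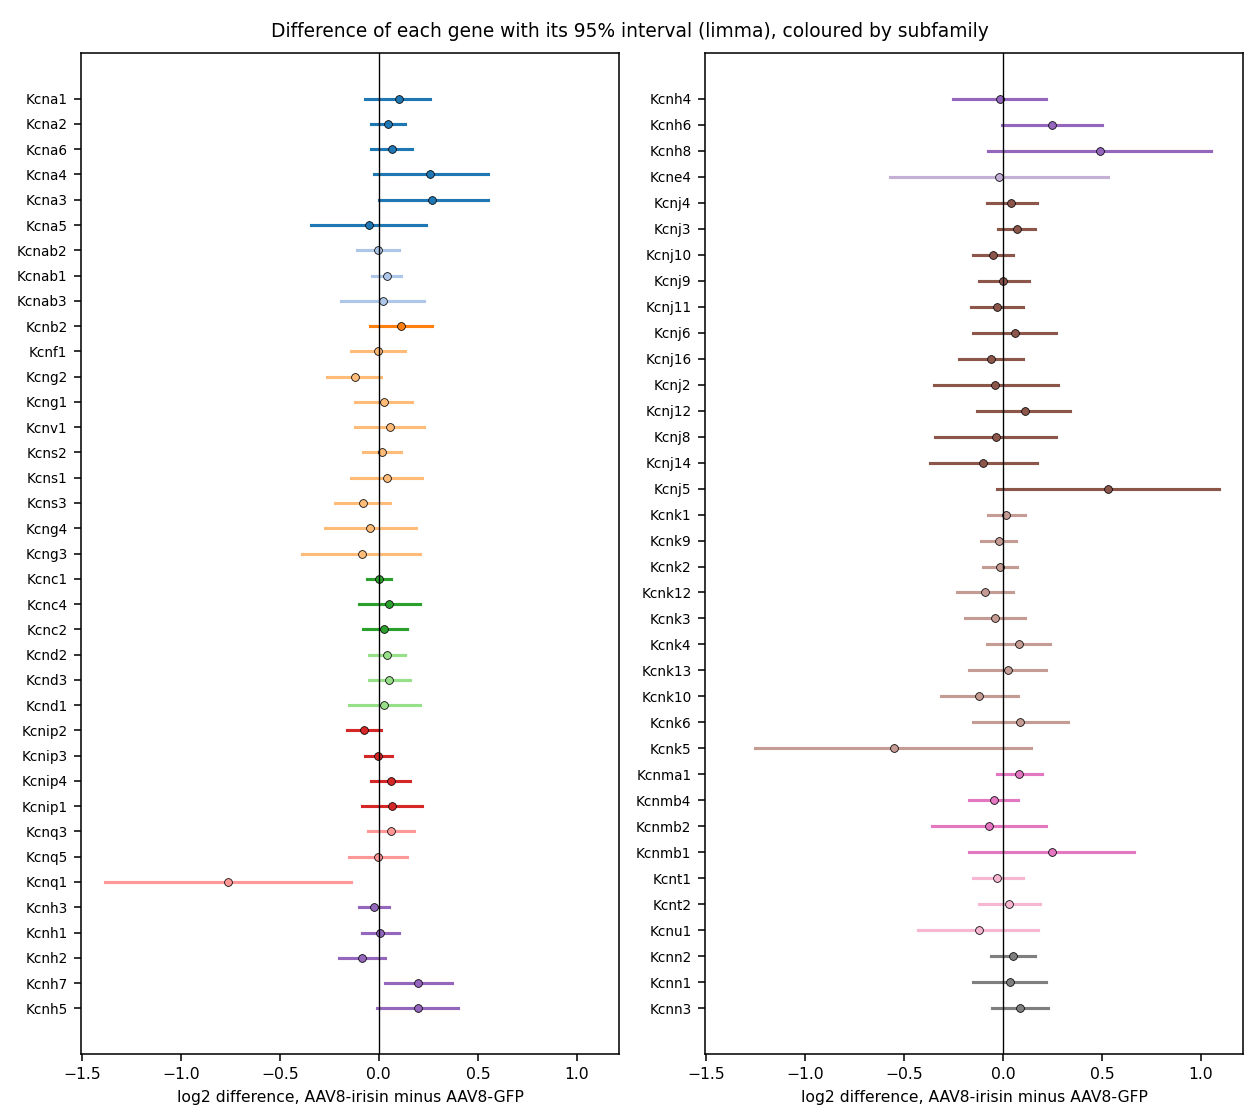
Log2 difference (AAV8-irisin minus AAV8-GFP, horizontal axis) of each member reported here, arranged by subfamily, with its 95% interval from limma. All intervals but those of Kcnq1, Kcnh7 and Kcna3 cross 0, and the widest belong to members with low counts such as Kcnq1, Kcnk5 and Kcnj5.

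Kcnq1, the Kv7.1 pore subunit best known from heart and epithelia, had the smallest p of the members. The gene lies at chr7:143106362-143427042 on the plus strand. In mice 1 to 5 of each group, the order used throughout, it read 19.8, 15.7, 31.5, 12.7 and 34.2 in the AAV8-GFP mice and 16.4, 8.16, 11.0, 13.5 and 13.0 in the AAV8-irisin mice. The AAV8-GFP mice were scattered, with mice 3 and 5 highest, and 2 AAV8-irisin mice were below every AAV8-GFP mouse while the other mice overlapped. The means were 22.8 ± 9.59 and 12.4 ± 3.07 (SD, n = 5 each, as for all pairs of means given below). The log2 difference was −0.76 (SE 0.29, 95% interval −1.38 to −0.14, limma unadjusted p = 0.0205). Leaving out 1 mouse at a time gave −0.93 to −0.59, with p above 0.05 without AAV8-GFP mouse 3 (−0.62, unadjusted p = 0.0607) or 5 (−0.59, unadjusted p = 0.0635) or AAV8-irisin mouse 2 (−0.63, unadjusted p = 0.0549). Kcnq1ot1, a transcript on the opposite strand over Kcnq1 exons, read 1835 to 2170 over the 10 mice. Whether reads were counted by strand was not stated, so reads of the pair cannot be told apart.

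Kcnh7 encodes an ERG channel subunit, of a family that damps repeated firing. It lies at chr2:62693414-63184287 on the minus strand and read 1838, 2456, 1801, 2206 and 2172 in the AAV8-GFP mice and 2256, 2513, 2173, 2542 and 2510 in the AAV8-irisin mice. AAV8-GFP mice 1 and 3 were lowest, 3 AAV8-irisin mice were above every AAV8-GFP mouse, and the groups overlapped. The log2 difference was 0.20 (SE 0.079, 95% interval 0.033 to 0.37, unadjusted p = 0.0227), and 0.16 without AAV8-GFP mouse 1 (unadjusted p = 0.0596). With 1 mouse left out at a time it was 0.15 to 0.26, and p was also above 0.05 without AAV8-GFP mouse 3 or AAV8-irisin mouse 2, 4 or 5. Its exons overlap those of Gca on the opposite strand, which read 432 ± 61.9 and 418 ± 38.7.

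Kcna3, the Kv1.3 subunit that is also known from T cells and microglia, lies at chr3:107036169-107038070 on the plus strand. It read 183, 283, 261, 291 and 260 in the AAV8-GFP mice and 332, 281, 249, 347 and 329 in the AAV8-irisin mice. AAV8-irisin mice 1, 4 and 5 were above every AAV8-GFP mouse, AAV8-GFP mouse 1 was lowest of all, and the groups overlapped. The log2 difference was 0.27 (SE 0.13, 95% interval 0.00076 to 0.55, unadjusted p = 0.0494). Without AAV8-GFP mouse 1 it was 0.16 (unadjusted p = 0.137). It was 0.16 to 0.35 with 1 mouse left out at a time, and p was also above 0.05 without AAV8-GFP mouse 3 or 5 or AAV8-irisin mouse 1, 4 or 5. Summed microglia markers ranged from 14745 to 19600 in AAV8-GFP and from 13823 to 17346 in AAV8-irisin mice, and their part in Kcna3 was not tested.

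Kcnh6 encodes another ERG subunit and lies at chr11:106008124-106034549 on the plus strand. It read 61.7, 60.6, 62.3, 55.3 and 49.6 in the AAV8-GFP mice and 69.2, 73.3, 73.0, 64.5 and 64.1 in the AAV8-irisin mice. Every AAV8-irisin mouse was above every AAV8-GFP mouse, the only member of which this was true, while 0.382% of all genes had such a gap in the same direction. The log2 difference was 0.25 (SE 0.12, 95% interval −0.0052 to 0.50, unadjusted p = 0.0542), and 0.27 without AAV8-GFP mouse 1 (unadjusted p = 0.0538).

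**Figure D2:**
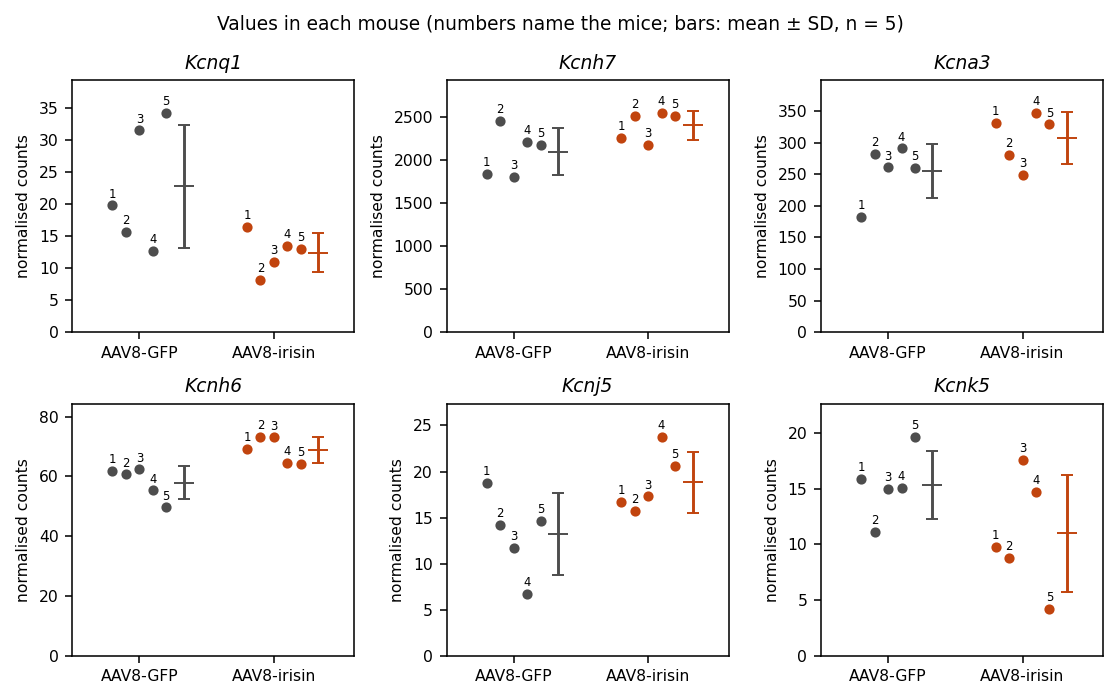
Normalised counts in each of the 10 mice for members of smallest p or with groups apart, with numbered points for mice and bars for the mean ± SD of each group (n = 5). Kcnh6 has no overlap between groups, from 49.6 to 62.3 in AAV8-GFP and from 64.1 to 73.3 in AAV8-irisin mice.

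Kv1 pore subunits sit in axons and set the threshold and width of the action potential. Means were higher after AAV8-irisin for 5 of the 6 members, against 50.5% of all genes, and lower for 1. The median log2 difference was 0.08, with a range of −0.05 to 0.27. AAV8-GFP mouse 1 was the lowest of all mice for 4 of the 6. Kcna1, the most abundant per kilobase of exon, read 2719, 3646, 3562, 3770 and 3631 in the AAV8-GFP mice and 3586, 3685, 3344, 3907 and 3903 in the AAV8-irisin mice. Far below the other 9 mice was AAV8-GFP mouse 1, and apart from it the groups overlapped closely (log2 difference 0.10, SE 0.077, unadjusted p = 0.236, and 0.011 without it). Kcna4, which gives a rapidly inactivating current, read 1028 ± 240 and 1210 ± 119 (0.26, unadjusted p = 0.0696). Its lowest value, 706, was also in AAV8-GFP mouse 1, without which it was 0.14 (unadjusted p = 0.2). Kcna2 had means of 8012 ± 308 and 8260 ± 370, Kcna6 of 2728 ± 217 and 2846 ± 68.6 and Kcna5 of 57.5 ± 5.15 and 55.7 ± 7.53.

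Kv beta subunits bind Kv1 channels in the cell and speed their inactivation or their traffic. Kcnab2 read 25921, 26920, 32289, 29933 and 29670 in the AAV8-GFP mice and 28018, 29827, 28502, 28496 and 29040 in the AAV8-irisin mice. It had the highest level per kilobase of all members, and the AAV8-irisin values lay inside the AAV8-GFP range (−0.0043, SE 0.05). Part of its exons overlap Gm16334 on the same strand. Kcnab1 read 4478, 4931, 4464, 4604 and 4457 in the AAV8-GFP mice and 4597, 4799, 4806, 4668 and 4680 in the AAV8-irisin mice. Its AAV8-irisin values lay inside the AAV8-GFP range (0.039, SE 0.035, unadjusted p = 0.286). Kcnab3 had means of 910 ± 145 and 916 ± 67.3.

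Kv2 channels carry the delayed rectifier current of pyramidal cell bodies. Kcnb2 read 762, 1009, 896, 886 and 879 in the AAV8-GFP mice and 958, 982, 828, 1001 and 1016 in the AAV8-irisin mice. Both groups had 1 mouse well below the rest, AAV8-GFP mouse 1 and AAV8-irisin mouse 3 (0.11, SE 0.074, unadjusted p = 0.149). It was 0.06 without the former and reached 0.16 with another mouse left out. Its limma unadjusted p was under 0.05 without AAV8-GFP mouse 2 or AAV8-irisin mouse 3. Silent Kv subunits conduct only when joined to Kv2, and 4 of the 9 members had higher means and 5 lower, with a median of −0.0037. Kcnf1 read 2926, 2796, 2253, 2724 and 2465 in the AAV8-GFP mice and 2613, 2699, 2794, 2478 and 2502 in the AAV8-irisin mice. AAV8-GFP mouse 1 was highest and mouse 3 lowest, so the AAV8-irisin mice lay between them (−0.0037, SE 0.064). Kcng2 read 1546, 1277, 1233, 1421 and 1265 in the AAV8-GFP mice and 1138, 1244, 1252, 1298 and 1242 in the AAV8-irisin mice. AAV8-GFP mouse 1 was highest and AAV8-irisin mouse 1 lowest (−0.12, SE 0.063, unadjusted p = 0.0709). It was −0.072 without the former and reached −0.15 with another mouse left out. Its limma unadjusted p was under 0.05 without AAV8-GFP mouse 3. Of the other silent subunits, Kcng1 had means of 1875 ± 216 and 1903 ± 85.7, Kcng3 of 125 ± 16.9 and 118 ± 20.1 and Kcng4 of 222 ± 34.2 and 214 ± 18.9. Kcns1 had means of 495 ± 62.7 and 506 ± 37.8, Kcns2 of 1397 ± 52.1 and 1416 ± 67.5 and Kcns3 of 352 ± 23.3 and 333 ± 5.21, and Kcnv1 had 1523 ± 202 and 1573 ± 84.1. None of these differed by more than 0.087 on the log2 scale.

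Kv3 pore subunits open at high voltage and close quickly. Kcnc4 read 3432, 2970, 2411, 2676 and 2794 in the AAV8-GFP mice and 2983, 2832, 2842, 3063 and 3008 in the AAV8-irisin mice. The highest was AAV8-GFP mouse 1, and the AAV8-irisin mice were within the AAV8-GFP range (0.053, SE 0.072). The difference was 0.12 without AAV8-GFP mouse 1, −0.0052 without mouse 3 and 0.032 without mouse 4. Kcnc1 had means of 8121 ± 127 and 8134 ± 173, with the smallest spread of all members at a within-group coefficient of variation of 1.87%, and Kcnc2 had 3503 ± 247 and 3569 ± 169.

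Kv4 pore subunits carry the A-type current of dendrites. Their means were higher after AAV8-irisin for 3 of 3, against 50.5% of all genes, by 0.026 to 0.053. Kcnd2 read 4170, 4887, 4486, 4711 and 4538 in the AAV8-GFP mice and 4566, 4904, 4712, 4697 and 4556 in the AAV8-irisin mice. AAV8-GFP mouse 1 was lowest, and the other 9 mice were close together (0.042, SE 0.042, and 0.01 without that mouse). Kcnd3 read 3981, 4858, 4249, 4551 and 4486 in the AAV8-GFP mice and 4467, 4541, 4456, 4772 and 4677 in the AAV8-irisin mice. It had the same lowest mouse, and the AAV8-irisin mice were inside the AAV8-GFP range (0.053, SE 0.048). It was 0.016 without AAV8-GFP mouse 1 and 0.088 without mouse 2. Kcnd1 had means of 452 ± 34.6 and 461 ± 50.5. KChIPs are calcium-binding partners of Kv4. Kcnip2, the second most abundant member per kilobase, read 6883, 6306, 6803, 6598 and 6354 in the AAV8-GFP mice and 5996, 6253, 6802, 6081 and 6134 in the AAV8-irisin mice. Of the AAV8-irisin mice, 4 were below every AAV8-GFP mouse and mouse 3 was within them (−0.076, SE 0.04, unadjusted p = 0.0793). Kcnip1 had means of 521 ± 38.0 and 546 ± 44.5, Kcnip3 of 2912 ± 44.9 and 2909 ± 74.9 and Kcnip4 of 1614 ± 92.8 and 1682 ± 55.3.

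Kcnq3 and Kcnq5 are Kv7 subunits of neurons. Kcnq3 had means of 8154 ± 711 and 8504 ± 407 and Kcnq5 of 3930 ± 466 and 3902 ± 151. Among the 8 EAG, ERG and ELK members, 5 had higher means and 3 lower, with a median of 0.1. Kcnh3, an ELK channel of forebrain neurons, read 4157, 3941, 3848, 3733 and 3785 in the AAV8-GFP mice and 3800, 3836, 3836, 3696 and 3952 in the AAV8-irisin mice. The groups overlapped, with AAV8-irisin mouse 4 lowest (−0.025, SE 0.036). The low-abundance Kcnh5 and Kcnh8 had means of 159 ± 16.9 and 182 ± 13.8 (0.20, unadjusted p = 0.0585) and 18.6 ± 6.33 and 25.7 ± 6.55 (0.49, SE 0.26, unadjusted p = 0.0848). For Kcnh5 it was 0.13 without AAV8-GFP mouse 1, and for Kcnh8 0.30 without AAV8-GFP mouse 4. Kcnh2, an ERG subunit like Kcnh6 and Kcnh7, had means in the other direction, 1075 ± 69.0 and 1013 ± 54.2 (−0.084, unadjusted p = 0.146). Kcnh1 had means of 2072 ± 84.4 and 2084 ± 100 and Kcnh4 of 144 ± 15.4 and 143 ± 19.1. The 1 Kcne beta subunit that met the minimum, Kcne4, an inhibitory partner of Kv channels, read 19.4, 20.3, 40.7, 39.1 and 28.2 in the AAV8-GFP mice and 31.3, 16.8, 34.4, 31.1 and 29.2 in the AAV8-irisin mice. Both groups spread widely (−0.021, SE 0.25).

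Inward rectifiers include the strong rectifiers of the Kir2 group, the GIRK channels opened by G proteins, the KATP channels and the glial Kir4.1. Means were higher for 6 of the 12 members and lower for 6, with a median of −0.013. Kcnj4, a strong rectifier of forebrain neurons, read 2719, 2617, 2322, 2672 and 2287 in the AAV8-GFP mice and 2360, 2613, 2620, 2777 and 2608 in the AAV8-irisin mice. AAV8-GFP mice 3 and 5 and AAV8-irisin mouse 1 were the low values (0.042, SE 0.057). Kcnj5, a GIRK subunit of the heart, lies at chr9:32314707-32344350 on the minus strand and read 18.8, 14.2, 11.7, 6.67 and 14.6 in the AAV8-GFP mice and 16.7, 15.7, 17.3, 23.8 and 20.6 in the AAV8-irisin mice. It was near the minimum for inclusion, 2 AAV8-irisin mice were above every AAV8-GFP mouse, and the log2 difference was 0.53 (SE 0.26, 95% interval −0.029 to 1.09, unadjusted p = 0.0613). Without AAV8-GFP mouse 4 it was 0.33 (unadjusted p = 0.174). The difference reached 0.67 with another mouse left out, and its limma unadjusted p was under 0.05 without AAV8-GFP mouse 1. The neuronal GIRK subunits Kcnj3, Kcnj6 and Kcnj9 had means of 5873 ± 362 and 6153 ± 207, 1876 ± 301 and 1937 ± 118 and 3743 ± 374 and 3736 ± 132. The KATP pore subunits Kcnj11 and Kcnj8 had 1412 ± 126 and 1382 ± 76.3 and 104 ± 17.7 and 102 ± 16.7. The glial subunits Kcnj10 and Kcnj16 had 5015 ± 362 and 4842 ± 142 and 787 ± 101 and 751 ± 25.7. Kcnj2, Kcnj12 and Kcnj14 had 454 ± 117 and 436 ± 69.9, 183 ± 21.5 and 198 ± 25.9 and 88.0 ± 11.2 and 82.1 ± 9.46. These 10 differed by −0.10 to 0.11.

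K2P channels set the resting leak, and 4 of their 10 members had higher means and 6 lower, with a median of −0.016. Kcnk1, a weak leak channel of neurons and astrocytes, read 2489, 2422, 2259, 2464 and 2419 in the AAV8-GFP mice and 2244, 2403, 2543, 2501 and 2516 in the AAV8-irisin mice. AAV8-irisin mouse 1 was lowest and 3 AAV8-irisin mice were highest, with the rest in between (0.018, SE 0.043). Kcnk5 lies at chr14:20140057-20181809 on the minus strand and read 15.9, 11.1, 15.0, 15.1 and 19.7 in the AAV8-GFP mice and 9.78, 8.80, 17.6, 14.7 and 4.17 in the AAV8-irisin mice. Every AAV8-GFP mouse but only AAV8-irisin mice 3 and 4 reached 10, so its inclusion rests on the group where it was higher. Of the AAV8-irisin mice, 3 were below every AAV8-GFP mouse (−0.55, SE 0.32, 95% interval −1.25 to 0.14, unadjusted p = 0.109). Without AAV8-irisin mouse 5 it was −0.28 (unadjusted p = 0.314). The difference reached −0.74 with another mouse left out, and its limma unadjusted p was under 0.05 without AAV8-irisin mouse 3. The mechanosensitive or lipid-gated Kcnk2, Kcnk4 and Kcnk10 had means of 1538 ± 50.1 and 1523 ± 51.1, 379 ± 33.3 and 401 ± 26.7 and 484 ± 52.6 and 446 ± 52.3. The acid-sensitive Kcnk3 and Kcnk9 had 544 ± 52.2 and 528 ± 27.7 and 4695 ± 227 and 4633 ± 173. Kcnk6, Kcnk12 and Kcnk13 had 142 ± 19.4 and 150 ± 12.8, 525 ± 46.2 and 493 ± 15.9 and 246 ± 29.4 and 250 ± 19.7. For Kcnk10, 3 AAV8-irisin mice were below every AAV8-GFP mouse (−0.12, SE 0.09).

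The calcium-activated BK channel has Kcnma1 as its pore, and it read 8492, 10215, 10245, 9956 and 10348 in the AAV8-GFP mice and 10337, 10610, 9516, 10920 and 10708 in the AAV8-irisin mice. The lowest by a wide gap was AAV8-GFP mouse 1, and 3 AAV8-irisin mice were highest (0.083, SE 0.054, unadjusted p = 0.145). Without that AAV8-GFP mouse it was 0.03 (unadjusted p = 0.418). The difference reached 0.12 with another mouse left out, and its limma unadjusted p was under 0.05 without AAV8-irisin mouse 3. The BK beta subunits Kcnmb1, Kcnmb2 and Kcnmb4 had means of 29.1 ± 7.70 and 33.9 ± 3.20, 151 ± 29.1 and 143 ± 20.3 and 1612 ± 135 and 1557 ± 77.1. Among the other Slo channels, Kcnt1, opened by sodium, read 2386, 2034, 2248, 2088 and 2243 in the AAV8-GFP mice and 2385, 1991, 2000, 2149 and 2273 in the AAV8-irisin mice. AAV8-irisin mice 2 and 3 were lowest (−0.028, SE 0.058). Kcnt2 had means of 1026 ± 122 and 1044 ± 37.6. Kcnu1, the sperm Slo channel, was low and read 87.0, 76.4, 89.9, 96.6 and 61.3 in the AAV8-GFP mice and 75.5, 66.7, 90.7, 66.7 and 75.6 in the AAV8-irisin mice. Its highest and lowest values were both in AAV8-GFP mice (−0.12, SE 0.14). It was −0.061 without AAV8-GFP mouse 4, −0.22 without mouse 5 and −0.19 without AAV8-irisin mouse 3. SK channels, which give the afterhyperpolarisation, had higher means after AAV8-irisin for 3 of 3, against 50.5% of all genes, by 0.034 to 0.089. Kcnn2 read 2125, 2190, 2404, 2357 and 2288 in the AAV8-GFP mice and 2201, 2577, 2437, 2224 and 2336 in the AAV8-irisin mice, with AAV8-irisin mice 2 and 3 above every AAV8-GFP mouse and overlap elsewhere (0.05, SE 0.051). It was 0.026 without AAV8-GFP mouse 1 and 0.017 without AAV8-irisin mouse 2. Kcnn3 read 773, 933, 979, 850 and 963 in the AAV8-GFP mice and 998, 964, 862, 988 and 959 in the AAV8-irisin mice. Its lowest value was in AAV8-GFP mouse 1 (0.089, SE 0.068, unadjusted p = 0.212, and 0.036 without that mouse). Kcnn1 had means of 581 ± 75.3 and 592 ± 43.5.

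Levels between genes were compared per kilobase of exon. The median member stood at 250 normalised counts per kilobase, against 133 over 17330 genes with a known length. Kcnab2 was highest at 5174, followed by Kcnip2 at 1847, both auxiliary subunits. Kcnj4 at 1189, Kcnj3 at 1153 and Kcnk1 at 1085 were also among the higher ones. Kcnj5 at 3.42, Kcnk5 at 3.87, Kcnq1 at 4.3 and Kcnh8 at 4.86 were lowest, and the highest level was 1513 times the lowest. The 3 members of smallest p were below the median member, with Kcna3 and Kcnh7 both at 148.

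**Figure D3:**
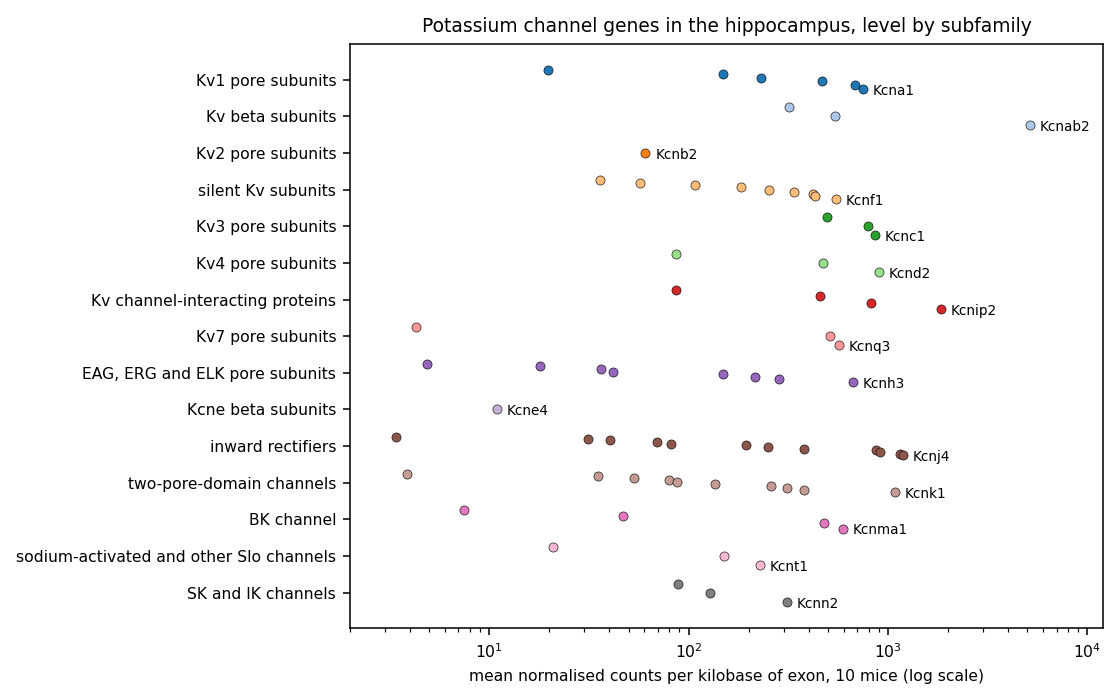
Mean normalised counts per kilobase of exon over the 10 mice (log scale) for the members reported here, arranged by subfamily, with the name of the highest one shown in each. Kcnab2 stands highest at 5174 and Kcnj5 lowest at 3.42.

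At the minimum itself, Kcnk5 reached 10 in 7 libraries, and Kcnj5 and Kcnq1 did so in 9. Of the 15 symbols under it, 0 had groups that did not overlap (0.686% of 26538 genes with no filter on low values), and Kcne3 and Kcnn4 reached it in 2 libraries, with means of 8.33 and 7.41 for Kcne3 and of 10.1 and 7.0 for Kcnn4. The others were Kcna7, Kcna10, Kcne1, Kcne2, Kcnj1, Kcnj13, Kcnj15, Kcnk7, Kcnk15, Kcnk16, Kcnk18, Kcnmb3 and Kcnv2. Of the 77 members, 23 have exons that overlap an exon of another gene on the opposite strand and 2 on the same strand, Kcnab2 and Kcnk4, which leaves their values uncertain.

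A single library often held the extreme value of a member. AAV8-GFP mouse 1 was the lowest of the 10 mice for 25 members (32.5%, against 20.8% of all genes) and the highest for 18 (23.4%, against 19.7%). By comparison, AAV8-GFP mouse 3 was lowest for 15 and highest for 10. AAV8-GFP mouse 1 was lowest for 4 of 6 Kv1, 3 of 5 Kv7, 2 of 3 Kv4, 2 of 3 SK, 2 of 4 BK and 4 of 12 inward rectifier members, and highest for 4 of 9 silent Kv and 3 of 10 K2P members. Members that were lowest in this mouse had a median exon length of 5578 bases and a coding GC content of 53.4%, and those that were highest had 4132 bases and 60.4%. Across the 77 members, the deviation of this library from the mean of the others had a Spearman correlation of −0.39 with exon length and of 0.42 with coding GC, and across genes of −0.31 (17330 genes) and 0.38 (15031 genes). In the other 9 libraries the members' correlations lay between −0.29 and 0.32 for length and between −0.22 and −0.016 for GC. These describe genes of a single library and are not independent replicates, and the cause was not tested.

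Without AAV8-GFP mouse 1, 0 members had an adjusted p under 0.05 by limma and 5 had an unadjusted p under 0.05, against 4.85% of all genes. Among them, Kcna6, Kcnc4 and Kcnj5 had higher means and Kcnq1 a lower mean. Of the 3 found with all mice, Kcnq1 stayed under 0.05 (−0.78, unadjusted p = 0.0286). Means were then higher for 45 of 77 members, against 49.8% of all genes, with a median log2 difference of 0.0061. The spread between mice was lower after AAV8-irisin than after AAV8-GFP for 58 of 77 members with all mice, against 62.9% of all genes. Without this mouse it was lower for 41 of 77, against 50.1% of all genes.

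**Figure D4:**
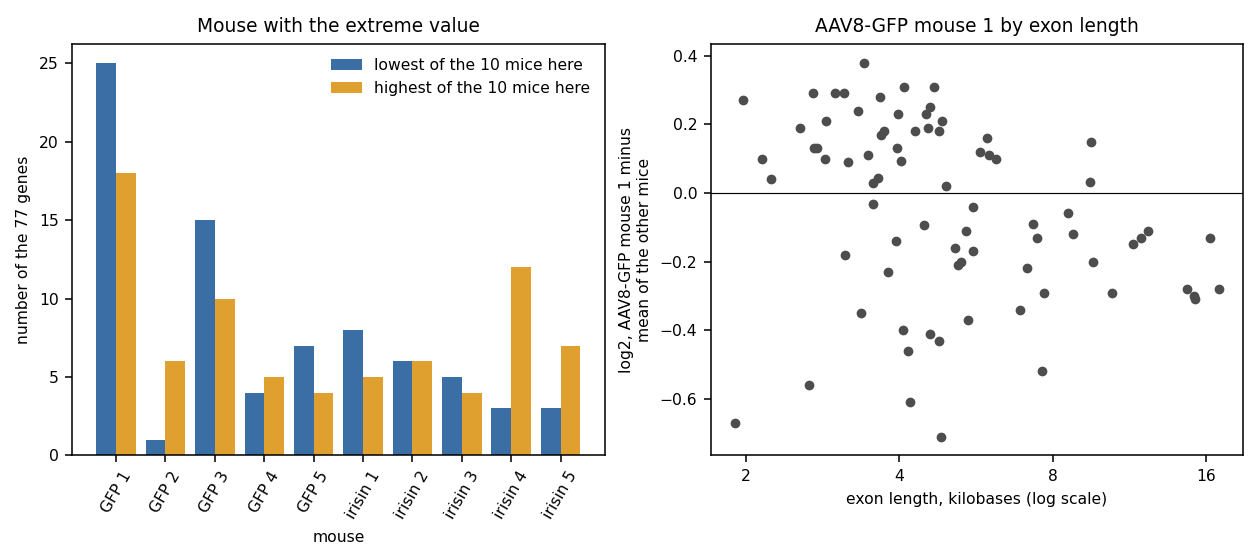
Left, for each of the 10 libraries, the number of members that were the highest or the lowest of the 10 mice there. Right, the log2 deviation of AAV8-GFP mouse 1 from the mean of the other mice for each member against its exon length (log scale), where longer members lie lower.

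Across the 10 mice, 12 pairs of genes chosen from textbook knowledge were compared. They were subunits known to assemble, and Kcnj13 and Kcne2 each with the choroid plexus marker Ttr. Pearson's r and Spearman's rho were taken, with permutation p-values adjusted over the 12. By rho, no pair had an adjusted permutation p under 0.05 (smallest 0.106). Pearson's r was taken again without the 2 mice farthest from the median of the first gene. Kcnj10 and Kcnj16, which form the glial Kir channel, had r = 0.89 (raw permutation p = 0.00103, adjusted 0.0124) and rho = 0.79 (adjusted 0.106), and r = 0.59 without AAV8-GFP mice 5 and 3. AAV8-GFP mouse 3, which had the highest summed astrocyte markers, was highest for both, and both varied more among the AAV8-GFP mice (SD 362 and 101) than among the AAV8-irisin mice (SD 142 and 25.7). Kcnj11 and Abcc8, the neuronal KATP pore and its sulfonylurea receptor, had r = 0.71 (adjusted permutation p = 0.0478) and rho = 0.71 (adjusted 0.109), and r = 0.85 without AAV8-GFP mice 3 and 1. Kcna1 with Kcna2 had r = 0.79 (adjusted permutation p = 0.0188), which dropped to 0.24 without AAV8-irisin mouse 3 and AAV8-GFP mouse 1. Kcnj3 with Kcnj6, the neuronal GIRK pair, had r = 0.84 (adjusted permutation p = 0.0478) and 0.15 without the 2 mice. Kcnma1 with Kcnmb4, the BK pore and its neuronal beta subunit, had r = −0.86 (raw permutation p = 0.00452, adjusted 0.0188) and −0.33 without them. In the same order, rho of these 3 pairs was 0.47 (adjusted permutation p = 0.308), 0.56 (adjusted 0.286) and −0.73 (adjusted 0.109). The size of r in these 3 pairs depends on the mice left out. Leaving out the farthest mice also narrows the range of values, which can by itself weaken r. Further pairs were Kcna1 with Kcnab2 at r = 0.54, Kcnd2 with Dpp10 at 0.16 and Kcnj8 with Abcc9 at 0.15, none with an adjusted permutation p under 0.05.

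Kcnj13 and Kcne2, channel genes of the choroid plexus epithelium that were under the minimum, were compared with Ttr, its leading secreted protein. Kcnj13 read 0.959, 8.02, 2.65, 3.77 and 2.35 in the AAV8-GFP mice and 6.65, 1.03, 6.18, 35.6 and 2.94 in the AAV8-irisin mice. Kcne2 read 4.73, 9.15, 4.41, 8.58 and 1.18 in the AAV8-GFP mice and 3.84, 2.06, 9.19, 22.1 and 2.95 in the AAV8-irisin mice, and Ttr read 27.6, 10.1, 14.1, 48.3 and 47.4 in the AAV8-GFP mice and 86.2, 12.3, 162, 1528 and 56.6 in the AAV8-irisin mice. AAV8-irisin mouse 4 was highest for all 3 genes and had the highest summed choroid plexus markers at 7574, against 4260 to 5366 in AAV8-GFP mice. That sum includes Ttr itself, so it is not separate from it. Its largest part was Enpp2 at 4797, which read 3307 or more in every mouse. Kcnj13 with Ttr had r = 0.77 (adjusted permutation p = 0.0478) and rho = 0.48 (adjusted 0.308). Its r was 0.35 without the 2 mice left out. Kcne2 with Ttr had r = 0.59 (adjusted permutation p = 0.115) and rho = 0.36 (adjusted 0.416), and r = 0.23 without the 2 mice. The size of both r values depends on the mice left out, AAV8-irisin mouse 4 among them. Reads of Kcnj13 cannot be told apart from those of Gigyf2 on the opposite strand.

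**Figure D5:**
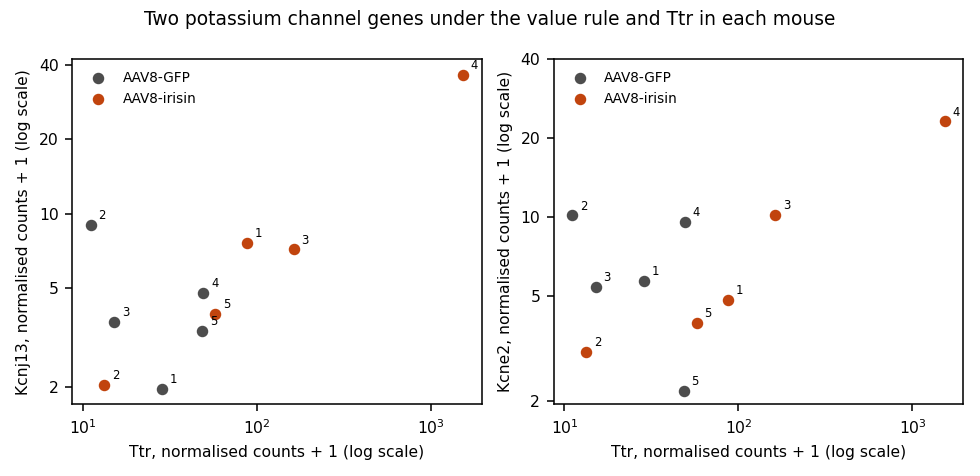
Kcnj13 (left) and Kcne2 (right) against Ttr in each mouse, normalised counts plus 1 on log axes, numbered by mouse. AAV8-irisin mouse 4 lies alone at the upper right of both panels.

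Genes that work with these channels were taken from lists of partners and related transporters. Of 45 listed genes, 44 were tested, and 0 had an adjusted p under 0.05 by limma. At an unadjusted p under 0.05 there were 5 (11.4%), against 4.49% of all genes. All 5 had higher means after AAV8-irisin, where 2.28% of all genes are found. Means were higher for 33 of 44, against 50.5% of all genes. Without AAV8-GFP mouse 1 there were 3, 2 higher and 1 lower (6.82%, against 4.85% of all genes). Then 27 had higher means, against 49.8% of all genes. Dpp10, a Kv4 partner that speeds inactivation, had means of 1650 ± 119 and 1944 ± 231 (log2 difference 0.23, SE 0.076, unadjusted p = 0.0086). Adam22, a synaptic anchor of Kv1, had 7687 ± 485 and 8290 ± 397 (0.11, unadjusted p = 0.0332), and Kctd16, a GABA-B receptor partner of GIRK channels, 677 ± 151 and 820 ± 86.3 (0.30, unadjusted p = 0.0359). Slc12a7, a potassium-chloride cotransporter, had 155 ± 26.4 and 209 ± 50.8 (0.42, unadjusted p = 0.0154). The fifth gene was Dlg1, a membrane scaffold, named here after its values were seen, with 3621 ± 238 and 3881 ± 128. Without AAV8-GFP mouse 1 the differences were 0.22 (unadjusted p = 0.0164) for Dpp10 and 0.38 (unadjusted p = 0.0359) for Slc12a7. They were 0.072 (unadjusted p = 0.0712) for Adam22, 0.21 (unadjusted p = 0.1) for Kctd16 and 0.082 (unadjusted p = 0.0793) for Dlg1. In the other lists the genes of smallest p were Lrrc38 of the BK gamma subunits, 22.5 ± 8.30 and 28.7 ± 4.45 (unadjusted p = 0.131), Abcc8, 1555 ± 129 and 1483 ± 71.6, Hcn2 of the pacemaker channels, 5303 ± 438 and 4953 ± 160 (−0.10, unadjusted p = 0.0728, and −0.046 without AAV8-GFP mouse 1), and Atp1b1 of the sodium-potassium pump, 64490 ± 1143 and 66137 ± 1206.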

How the data were processed

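Hippocampal RNA of 10 male APP/PS1 mice was purified with a Qiagen RNeasy Plus Universal kit, enriched on oligo(dT) beads and made into NEBNext Ultra libraries, per the labels' protocols. The submitters' processing notes name bcl2fastq 2.17, DESeq2 and mm10. Aligner, counting tool, annotation and strand setting are not given in the sources used here. What the authors deposited is a non-negative signal for every gene in each library, named DESeq2 normalised counts. Whole reads could not be recovered, since 49.0% to 71.5% of low values per library were within 0.1 of a whole multiple of the commonest low value, so no count test was run, the depth is unknown, and precision is given as the spread between mice.

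Genes reaching 10 in 5 or more libraries were fitted on log2(value + 1) with limma 3.58.1 in R 4.3.3 (trended prior variance, treatment as factor, two-sided, Benjamini-Hochberg over 17556 genes, threshold 0.05). A fold change on this scale understates that of low genes. Samples are titled as separate mice, and p-values reflect how these differ. Pair correlations used 100000 permutations in scipy 1.17.1. Positions, exon lengths and coding sequences are those of GENCODE M21, matched by symbol for all 77 members. The fit was tested on simulated data.

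Values in every mouse are given for the member of each subfamily with the highest level per kilobase or the smallest p, and for members whose groups do not overlap or whose unadjusted p is under 0.05, which gave 28 members. All other members are given by group means. Some members, partner genes and pairs are counted but are not reported here. Partner lists covered Kv4 partners, Kv2 and Kv1 partners and anchors, BK gamma subunits, sulfonylurea receptors, GIRK regulators, HCN channels, the sodium-potassium pump and potassium-chloride cotransporters. The members and lists were chosen with earlier results of these data known. Alternatives were other pseudocounts, filters, scalings, weights and prior variances, a replicate block, and leaving out each mouse.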

Additional observations from a re-analysis of the deposited data

Results flagged for a closer look

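For each member, each group of 5 mice was examined for a mouse whose gap to the nearest other mouse took up more than 0.71 of the group's range. Of 154 such groups, 14 had one (9.09%), against 6.55% of 35112 groups over all genes tested. Chance flags about 1 in 20 groups, if groups were independent, but all genes here share the same 10 libraries. AAV8-GFP mouse 1 accounted for 6 of them. There Kcna1 read 2719 (the other AAV8-GFP mice 3562 to 3770), Kcna3 183 (260 to 291), Kcnj6 1366 (1914 to 2164), Kcnk6 109 (142 to 158) and Kcnma1 8492 (9956 to 10348), all low, while Kcnk13 was high at 297 (222 to 239). AAV8-irisin mouse 3 accounted for 5. In it Kcnb2 read 828 (the other AAV8-irisin mice 958 to 1016), Kcnq5 3643 (3905 to 4009), Kcnk9 4327 (4670 to 4740) and Kcnn3 862 (959 to 998), all low, and Kcng4 was high at 247 (204 to 207). The other 3 were Kcna5 in AAV8-GFP mouse 3 at 48.5 (58.3 to 61.5), Kcnk2 in AAV8-GFP mouse 5 at 1452 (1550 to 1582) and Kcne4 in AAV8-irisin mouse 2 at 16.8 (29.2 to 34.4).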

How the results depend on the processing

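Over 19 alternatives, no member had an adjusted p under 0.05 by limma (smallest 0.794), and the members' median log2 difference stayed between 0.0061 and 0.025. Over all genes the count with an adjusted p under 0.05 was 0, except 1 (Gm49383) with no filter on low values. Members at an unadjusted p under 0.05, 3 in the report, numbered 6 with array quality weights (5.11% of all genes), 4 without a trend in the prior variance (4.64%), 2 with quantile normalisation (4.6%) and 1 with a mean of at least 50 (4.43%), where 71 members were tested. Leaving out 1 mouse at a time gave 1 to 7, with the share of all genes in the same fit in brackets. Without AAV8-GFP mouse 1, 2, 4 or 5 there were 5 (4.85%), 6 (6.24%), 5 (5.06%) and 1 (5.26%). Without AAV8-irisin mouse 3, 4 or 5 there were 7 (6.03%), 1 (3.39%) and 1 (3.51%). Members under 0.05 in some of these fits, though not with all mice, included Kcna4, Kcnb2, Kcng2, Kcnip2, Kcnh5, Kcnh6, Kcnh8, Kcnj5, Kcnk5 and Kcnma1. The share of all genes ran from 3.39% without AAV8-irisin mouse 4 to 6.24% without AAV8-GFP mouse 2. The sign of 20 of the 28 members given mouse by mouse turned in no setting. That of Kcnf1 turned with array quality weights (0.0062) and that of Kcnab2 with quantile normalisation (0.018). Leaving out mice turned the sign of these and of others, with log2 differences of −0.058 to 0.036 for Kcnf1, −0.043 to 0.036 for Kcnab2, −0.0052 to 0.12 for Kcnc4, −0.15 to 0.15 for Kcne4, −0.0054 to 0.048 for Kcnk1 and −0.064 to 0.0022 for Kcnt1. Without the 2 mice farthest from the median of the first gene, Pearson's r changed sign for Kcna1 with Kcnab2 (−0.21), Kcnd2 with Dpp10 (−0.06) and Kcnj8 with Abcc9 (−0.54). The causes were not tested.

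With the replicate number as a block, 3 members (Kcna4, Kcnq1 and Kcnh7) had a limma unadjusted p under 0.05, against 4.91% of all genes (862). An adjusted p under 0.05 was found for 0 members and 0 genes. Deviations of same-numbered mice correlated at −0.0891 to 0.0297, so no likeness by number was seen. A small factor shared by same-numbered mice cannot be told from these values. Every mouse but number 5 correlated best with another number.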

Other observations

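Kcnmb4os1, an RNA on the strand opposite to Kcnmb4, is outside the symbol pattern and was singled out after its values were seen, among 8 genes that overlap channel genes. It lies at chr10:116418052-116421237 on the plus strand. It read 11.9, 18, 12.4, 16.5 and 9.28 in AAV8-GFP mice 1 to 5 and 2.83, 3.11, 3.12, 4.30 and 3.89 in AAV8-irisin mice 1 to 5. Every AAV8-irisin mouse was below every AAV8-GFP mouse, as for 0.686% of 26538 genes in either direction when no filter on low values is used. With 10 or more in 4 libraries it was not among the genes tested in the report. In the fit without a filter its log2 difference was −1.69 (SE 0.27, limma unadjusted p = 2.13e-05, adjusted p = 0.188), the third smallest p of those genes, so it did not pass the threshold. Kcnmb4, the neuronal BK beta subunit, read 1833, 1576, 1568, 1614 and 1466 and then 1474, 1609, 1654, 1488 and 1560, with overlapping groups (−0.047, SE 0.057). Kcnmb4os2, a second RNA opposite to it, had means of 135 ± 16.7 and 143 ± 4.75 (SD, n = 5 each). Whether reads were counted by strand was not stated, so reads of the 3 genes over shared exons cannot be told apart.

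The 15 channel symbols under the minimum were also fitted without a filter, and 0 had an unadjusted p under 0.05. The smallest were those of Kcnv2, a silent Kv subunit of photoreceptors (0.82, SE 0.4, limma unadjusted p = 0.0609), and Kcnk15, a K2P gene (−0.73, SE 0.38, limma unadjusted p = 0.0756).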
